A study of Arabidopsis thaliana with 9 samples.

Results

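A set of 9 genes of vascular differentiation were followed across leaf and callus of Arabidopsis thaliana by RNA sequencing. They are the secondary wall cellulose synthases CESA4 (AT5G44030), CESA7 (AT5G17420) and CESA8 (AT4G18780), the xylem proteases XCP1 (AT4G35350) and XCP2 (AT1G20850), the procambial receptor kinase PXY (AT5G61480), the thermospermine synthase ACL5 (AT5G19530), the sieve element protein SEOR1 (AT3G01680) and the phloem regulator APL (AT1G79430). The 9 genes were chosen by name for their known roles in xylem and phloem, with earlier results of these data known. They are part of 18861 genes listed in any of the 3 tables of the study. Of them, 9 are listed for leaf, 7 for wild-type callus and 6 for emf2 callus.

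The study compared 3 groups of 3 biological replicates. The leaf group is Col-0 wild-type rosette leaf, harvested 2 weeks after seedlings raised for 1 week on MS medium had moved to soil, under 16 h of light a day. The wild-type callus is Col-0 tissue grown from cotyledons on a callus-inducing medium with the synthetic auxin 2,4-D at 2.2 µM and the cytokinin kinetin at 0.46 µM. It was begun in light for 7 days, then subcultured in the dark, and taken at 6 to 8 weeks of age. The emf2 callus was raised in the same way from plants labelled emf2, named emf2-1 in the file headers. The EMF2 protein belongs to Polycomb repressive complex 2, which silences genes through methylation of histone H3. Leaf and callus differ in organ, age, hormones and light together, and these cannot be told apart. Where the labels speak of biological replicates they do not say whether each came from separate plants or plates, so a p-value measures the spread between these samples.

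Water-conducting xylem cells lay down a patterned secondary wall and then die. CESA4, CESA7 and CESA8 together form the complex that makes the cellulose of that wall, and XCP1 and XCP2 are papain-like cysteine proteases that digest the cell contents after death. PXY, on dividing procambial cells, binds the peptide TDIF encoded by CLE41 and CLE44, which holds back xylem differentiation and keeps the stem cells dividing. ACL5 makes thermospermine, a polyamine that delays xylem vessel maturation. SEOR1 forms the protein filaments of sieve elements, and APL is a MYB-type transcription factor needed for phloem identity.

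Values are RPKM, reads per kilobase of gene and library size as the authors scaled them, and the table of a group holds genes whose mean exceeds 1 RPKM. A gene absent from a table is taken to have a mean of at most 1 RPKM there. The reads behind the values, recovered from their ratios, came to 40.3 to 53.6 M a library. In bulk tissue, fewer cells of a type and less RNA per cell cannot be told apart. The leaf label fits its mesophyll markers, 6 of 6 of which were listed with a summed level of 41159 to 63642 RPKM, against 4.99 to 49.0 RPKM over 5 listed genes in wild-type callus and 4.99 to 12.2 RPKM over 3 in emf2 callus. None of 6 root stem cell and callus markers was listed for leaf, while wild-type callus had 5 and emf2 callus 6. EMF2 itself (AT5G51230) stood at 7.43, 6.78 and 7.55 RPKM in wild-type callus and at 13.03, 15.5 and 16.3 RPKM in emf2 callus. The labels do not give the lesion, so this RNA level does not check the genotype, and emf2 callus is named here after its label. Leaf replicate 3 stood apart from the other leaf libraries, with EMF2 at 29.6 RPKM against 5.50 and 6.07 RPKM, and 48.9% of the 16694 genes listed in leaf had their lowest leaf value there. Results that rest on it are given with and without it.

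The promoters of the 5 secondary wall and xylem protease genes are shown because 4 of the 5 were lowest in the same libraries, described further on. Each stretch is the 250 bases before the annotated gene start in RefSeq TAIR10.1, whose nuclear chromosomes carry the TAIR10 sequence, written 5′ to 3′ on the strand of the gene. They lie at chr5:17714140-17714389 (plus strand), chr4:16810232-16810481 (plus), chr5:5741501-5741750 (minus), chr4:10316887-10317136 (minus) and chr1:7251861-7252110 (plus). Capitals mark matches to the tracheary-element-regulating cis-element (TERE, CTTNAAAGCNA) and to the secondary wall MYB element (SMRE, which reads ACC, then A or T, then A, then A or C, then C or T), each searched on both strands.
CESA4: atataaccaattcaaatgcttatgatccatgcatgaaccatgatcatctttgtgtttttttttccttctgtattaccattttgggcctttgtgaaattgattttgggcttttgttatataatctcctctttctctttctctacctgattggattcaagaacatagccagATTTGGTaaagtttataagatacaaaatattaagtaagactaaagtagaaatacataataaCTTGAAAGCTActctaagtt
XCP1: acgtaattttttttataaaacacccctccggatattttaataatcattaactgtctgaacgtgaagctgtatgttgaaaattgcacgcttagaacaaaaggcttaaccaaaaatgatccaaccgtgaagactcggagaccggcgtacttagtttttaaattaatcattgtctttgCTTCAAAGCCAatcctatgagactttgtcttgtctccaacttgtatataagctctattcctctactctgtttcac
CESA7: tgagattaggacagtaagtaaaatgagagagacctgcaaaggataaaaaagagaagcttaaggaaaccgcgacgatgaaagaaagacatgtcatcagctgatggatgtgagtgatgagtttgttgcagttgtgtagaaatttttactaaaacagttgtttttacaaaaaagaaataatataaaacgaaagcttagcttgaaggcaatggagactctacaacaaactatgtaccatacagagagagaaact
CESA8: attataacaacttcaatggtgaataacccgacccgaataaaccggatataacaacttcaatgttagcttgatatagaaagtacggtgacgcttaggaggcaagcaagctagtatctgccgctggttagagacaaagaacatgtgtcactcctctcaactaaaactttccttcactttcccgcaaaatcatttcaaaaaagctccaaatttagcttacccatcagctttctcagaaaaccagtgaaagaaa
XCP2: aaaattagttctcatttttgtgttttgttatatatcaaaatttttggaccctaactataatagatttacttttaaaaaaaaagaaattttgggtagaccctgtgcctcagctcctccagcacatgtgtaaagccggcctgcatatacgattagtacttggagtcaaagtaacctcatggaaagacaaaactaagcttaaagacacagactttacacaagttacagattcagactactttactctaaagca
The TERE letters occurred in CESA4 (CTTGAAAGCTA, first base 20 bases before the gene start) and XCP1 (CTTCAAAGCCA, 75 bases before it), that is in 2 of the 9 genes, against 101 of 27443 promoters of the same length (0.368%). The other capitals in CESA4 are an SMRE match on the opposite strand. PXY holds another SMRE match, and 29.4% of all promoters hold one. The degenerate SNBE motif was found in 7 of the 9 promoters and in 42.6% of all promoters. A match describes letters in this window and does not show a bound site. TERE is by its name a motif of tracheary elements, so its count in xylem genes is a description, and no test was run on it.

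The secondary wall cellulose synthases were weakly expressed in each tissue. CESA4 was lower in both calli than in leaf, CESA8 was listed in leaf alone, and CESA7 did not pass the test. CESA4 (chr5:17714390-17719723, 11 exons) stood at 5.41, 5.52 and 2.85 RPKM in leaf, at 1.40, 0.754 and 1.31 RPKM in wild-type callus, and at 0.993, 2.53 and 2.41 RPKM in emf2 callus. No callus library reached the lowest leaf library. Over all genes tested, 68.9% had no overlap between leaf and wild-type callus and 72.1% none between leaf and emf2 callus. Its mean level was 3.98-fold lower in wild-type callus than in leaf, a difference of -1.35 ± 0.29 (SE) on the log2(RPKM + 1) scale with a limma adjusted p of 0.00361. With libraries scaled to their recovered read totals it was -0.67, with an adjusted p of 0.0502, and the call was lost. In emf2 callus CESA4 was 2.32-fold lower than in leaf, at -0.91 ± 0.29 with an adjusted p of 0.0223. That call was lost without leaf replicate 1 (adjusted p = 0.0746), leaf replicate 2 (0.0771) or emf2 callus replicate 1 (0.0718), and with read totals it came to -0.18 (adjusted p = 0.568).

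CESA7 (chr5:5736630-5741500) stood at 3.49, 3.71 and 1.59 RPKM in leaf, at 1.79, 0.773 and 1.38 RPKM in wild-type callus, and at 0.947, 2.21 and 2.42 RPKM in emf2 callus. Leaf replicate 3 lay within the range of the callus libraries. The difference to leaf was -0.74 ± 0.31 in wild-type callus (adjusted p = 0.0648) and -0.45 ± 0.31 in emf2 callus (adjusted p = 0.229), and neither passed the threshold of 0.05. Without leaf replicate 3 the first reached -1.02 with an adjusted p of 0.0150. CESA8 (chr4:10312624-10316886) was listed in leaf alone, at 3.31, 3.59 and 1.83 RPKM. Its leaf mean of 2.91 ± 0.95 RPKM (SD, n = 3) lay above the 1 RPKM that absence from a callus table allows, by 0.94 ± 0.18 on the log2 scale. Such a gene is set against the same minimum that put it in the leaf table, no callus value enters, and 84.8% of genes listed in leaf and not in wild-type callus lay above the bound (adjusted p under 0.05). This comparison therefore adds little to the listing itself, here and for each gene listed for 1 group.

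The balance of CESA4 to CESA7, both subunits of the complex, is given as a description. The ratio of their RPKM was 1.55, 1.49 and 1.79 in the leaf libraries. It was 0.784, 0.976 and 0.946 for wild-type callus and 1.05, 1.14 and 0.995 for emf2 callus. The leaf ratios lay above the callus ratios with no overlap, and no test was run on them. The 3 coding sequences share 71.2 to 71.4% of aligned bases and no exact run beyond 20 bases. CESA4 overlaps its neighbours by 82 bases, among them AT5G44020 on the same strand, whose mean was 124 RPKM in leaf and 2.43 RPKM in wild-type callus. Reads in the overlap cannot be assigned to either gene, and the part they play in the leaf level of CESA4 was not tested. CESA8 overlaps MYB98 and AT4G06845, both on the opposite strand, by 562 bases in all, and the library kit does not keep strand. Neither neighbour was listed for any group, and the part of such reads in the low CESA8 level was not tested.

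The xylem proteases were among the better expressed of the 9 genes in leaf. XCP2 (chr1:7252111-7253747) stood at 37.0, 38.9 and 21.8 RPKM in leaf, at 5.01, 0.424 and 3.20 RPKM in wild-type callus, and at 1.21, 8.78 and 4.63 RPKM in emf2 callus. Leaf and callus did not overlap. Its mean was 11.3-fold lower in wild-type callus (-3.30 ± 0.65, adjusted p = 0.00229) and 6.67-fold lower in emf2 callus (-2.71 ± 0.65, adjusted p = 0.00618) than in leaf. By rank of its mean, XCP2 was number 3562 of 16694 genes listed in leaf and number 13783 of 16703 in wild-type callus.

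XCP1 (chr4:16810482-16812077) stood at 22.7, 24.0 and 7.53 RPKM in leaf, at 8.73, 0.614 and 7.64 RPKM in wild-type callus, and at 0.901, 6.17 and 3.80 RPKM in emf2 callus. Leaf replicate 3 lay below 2 of the wild-type callus libraries and above each emf2 library. Against leaf, XCP1 differed by -1.74 ± 0.79 in wild-type callus (adjusted p = 0.0838) and by -2.09 ± 0.79 in emf2 callus, where it was called lower with an adjusted p of 0.0454. Without leaf replicate 3, the wild-type difference was -2.24 and passed with an adjusted p of 0.0466. The emf2 call was lost in several settings, with adjusted p of 0.123 without leaf replicate 1, 0.130 without leaf replicate 2, 0.148 without emf2 callus replicate 1 and 0.0789 without emf2 callus replicate 3.

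The 2 proteases did not keep 1 proportion. XCP1 over XCP2 was 0.613, 0.617 and 0.346 in leaf. The ratio was 1.74, 1.45 and 2.39 for wild-type callus and 0.742, 0.702 and 0.821 for emf2 callus. The 3 groups of ratios did not overlap, with wild-type callus highest and leaf lowest. The 2 coding sequences share 74.5% of aligned bases, with a longest exact run of 23 bases. This ratio was noticed in the data, and no test was run on it.

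**Figure D1:**
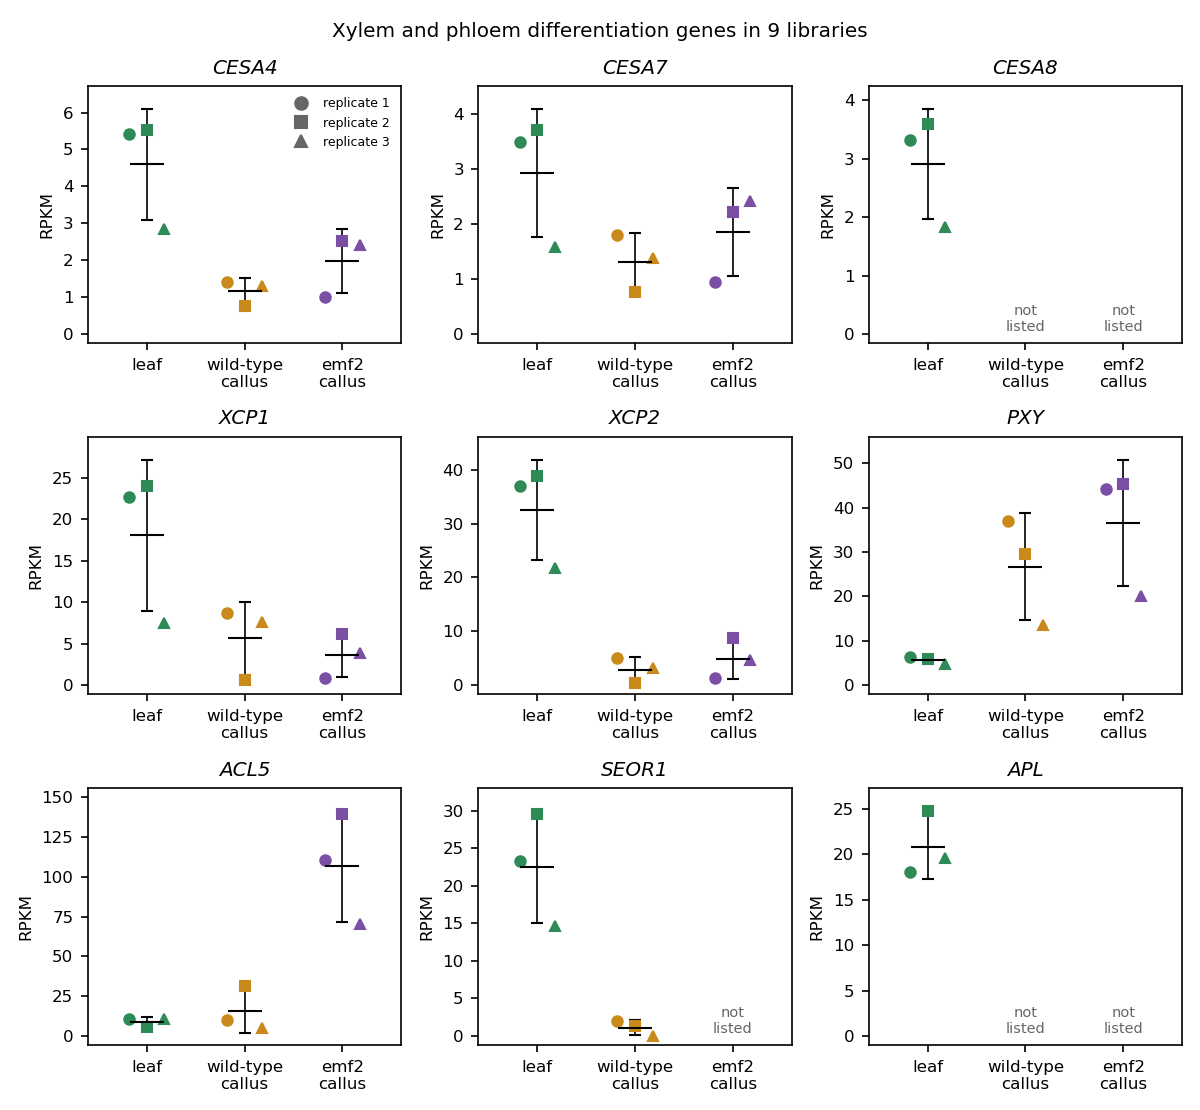
Level of each of the 9 genes in RPKM (vertical axis, linear) by group. Points are single libraries, and the bar and whiskers are the mean and SD of 3 libraries. ACL5 is highest in emf2 callus (70.1 to 139 RPKM), and CESA8 and APL are listed in leaf alone.

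The wall and protease genes listed in callus shared their lowest library within each tissue. CESA4, CESA7, XCP1 and XCP2 each had their lowest wild-type callus value in replicate 2, their lowest emf2 callus value in replicate 1 and their lowest leaf value in replicate 3. Across 16703 genes listed in wild-type callus, 36.3% were lowest in replicate 2, and across 16646 listed in emf2 callus, 26.2% were lowest in replicate 1, beside the 48.9% given above for leaf replicate 3. Within wild-type callus, XCP1 ranged over 14.2-fold and XCP2 over 11.8-fold between libraries, against a median range of 1.34-fold over all listed genes. Within emf2 callus the ranges were 6.85-fold and 7.24-fold, against a median of 1.24-fold. These low values rest on 61 reads of XCP1 and 43 reads of XCP2 in wild-type callus replicate 2, and on 83 and 114 reads in emf2 callus replicate 1.

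The same libraries were low in a wider set of secondary wall and xylem cell genes. Of 22 such genes, 15 were listed in wild-type callus and 12 of these were lowest in replicate 2, and 17 were listed in emf2 callus and 11 of these were lowest in replicate 1. Of the other papain-like proteases, 9 of 12 listed in wild-type callus were lowest in replicate 2 too. In emf2 callus 3 of 13 were lowest in replicate 1. LAC4, a laccase of lignin polymerization, stood at 2.46, 0.112 and 1.51 RPKM in wild-type callus and at 0.263, 1.57 and 1.84 RPKM in emf2 callus. Markers of mesophyll were low in these libraries too. Their sum was 49.0, 4.99 and 17.4 RPKM in wild-type callus, with 5 of 5 listed genes lowest in replicate 2. In emf2 callus it was 4.99, 7.90 and 12.2 RPKM, with 3 of 3 lowest in replicate 1. Mesophyll markers in the callus libraries thus shared their lowest library with the xylem genes. In emf2 callus their sum was highest in replicate 3, while XCP1 and XCP2 were highest in replicate 2. The part of mesophyll markers in the result was not tested. No mesophyll marker listed in a callus table was at 0.

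**Figure D2:**
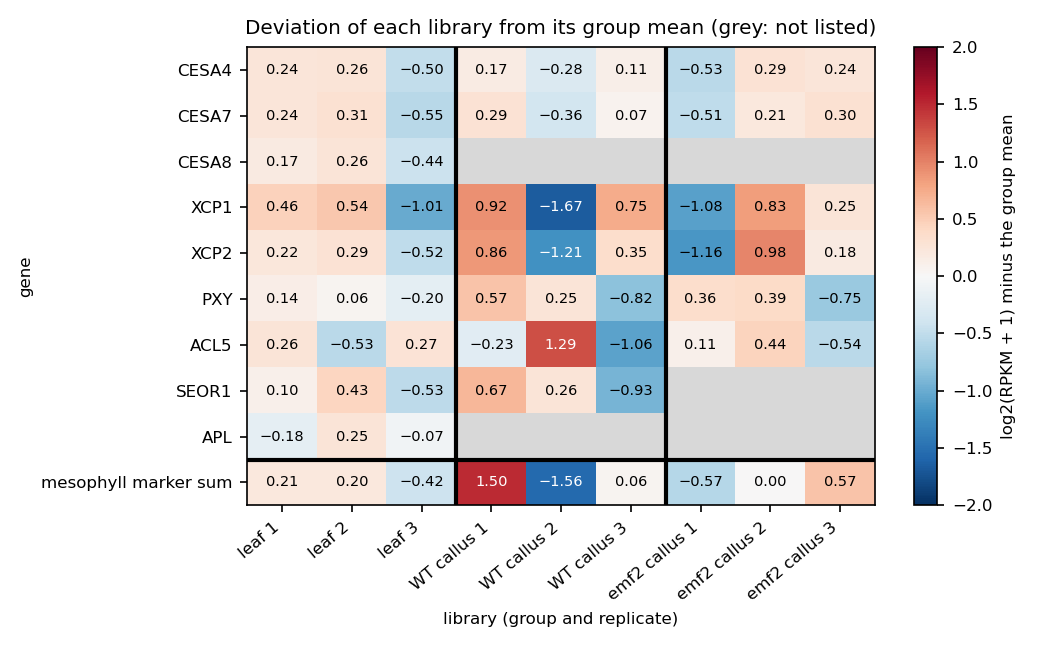
Deviation of each library from the mean of its own group on the log2(RPKM + 1) scale (colour and printed value), with genes in rows, libraries in columns and the summed mesophyll markers in the last row. XCP1 reads −1.67 and XCP2 −1.21 in wild-type callus replicate 2, while ACL5 reads 1.29 there.

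PXY, the receptor of the procambium, was higher in both calli than in leaf. PXY (chr5:24724337-24728244, 2 exons) stood at 6.22, 5.80 and 4.72 RPKM in leaf, at 37.1, 29.5 and 13.5 RPKM in wild-type callus, and at 44.2, 45.3 and 20.1 RPKM in emf2 callus. Each callus library lay above each leaf library. The mean was 4.79-fold higher in wild-type callus (1.97 ± 0.41, adjusted p = 0.00306) and 6.55-fold higher in emf2 callus (2.43 ± 0.41, adjusted p = 0.000985) than in leaf. Between the calli the difference was 0.46 ± 0.41 (adjusted p = 0.795), and their ranges overlapped. PXY was lowest in replicate 3 of each callus, as were 9 of 13 listed cambium genes in wild-type callus and 11 of 14 in emf2 callus. The same held for ACL5 in each callus, and for 11 of 13 listed phloem genes in wild-type callus and 10 of 12 in emf2 callus. Over all listed genes the shares lowest in replicate 3 were 38.6% and 37.4%.

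The partners of PXY in the TDIF pathway did not move as 1 block. CLE44, which encodes the TDIF peptide, rose from a mean of 4.14 RPKM in leaf to 96.1 RPKM in wild-type callus (4.26 ± 0.22, adjusted p = 1.52e-06) and 127 RPKM in emf2 callus. CLE41, which encodes the same peptide, fell from 32.8 RPKM to 9.37 RPKM in wild-type callus (-1.69 ± 0.25, adjusted p = 0.000511) and to 2.27 RPKM in emf2 callus (-3.38 ± 0.25, adjusted p = 1.01e-05). WOX4, a target of the pathway named here after its values were seen, had a mean of 1.99 RPKM in leaf, of 9.48 RPKM in wild-type callus and of 5.19 RPKM in the emf2 line. It was called higher in wild-type callus with an adjusted p of 0.00893, and the emf2 difference of 0.95 ± 0.44 had an adjusted p of 0.0886.

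Most tested procambial regulators were higher in callus. Of 17 genes in the cambium and procambium list, 10 were tested between wild-type callus and leaf, of which 7 were higher and 2 lower. Among all genes tested there, 33.6% were called higher and 31.8% lower. TMO5 and ER, 2 genes listed in leaf and not in wild-type callus, had leaf means of 8.75 and 5.95 RPKM, both above the bound. In emf2 callus TMO5 had a mean of 3.50 RPKM and ER was not listed. Another 3 genes were listed in wild-type callus and not in leaf, 1 of them above the bound. TMO6 and MP, which act in the auxin-driven start of vascular tissue, were higher by 4.57 ± 0.29 (adjusted p = 4.2e-06) and 4.22 ± 0.19 (adjusted p = 7.85e-07), and ATHB15 by 2.84 ± 0.20. In emf2 callus against leaf, 6 of 11 tested genes were higher and 2 lower, beside 34.1% and 31.2% of all genes tested. The median difference of the list to leaf was 2.08 for wild-type and 1.61 for emf2 callus, beside 0.06 and 0.08 over all genes tested.

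ACL5 was the member with the highest level in any group. Of the 6 members listed in both callus tables, 1, ACL5, had callus groups that did not overlap, as did 18.6% of all 16185 genes tested. ACL5 (chr5:6588771-6591363) stood at 10.4, 5.57 and 10.5 RPKM in leaf, at 10.3, 31.4 and 5.32 RPKM in wild-type callus, and at 111, 139 and 70.1 RPKM in emf2 callus. Leaf and wild-type callus overlapped, and the lowest emf2 library lay above the highest library of both other groups. Against leaf, the emf2 mean was 12.1-fold higher (3.45 ± 0.56, adjusted p = 0.000827). The wild-type mean differed from leaf by 0.48 ± 0.56 (adjusted p = 0.479), and without wild-type callus replicate 2 the sign turned, at -0.17. In rank of mean level ACL5 was number 9222 of 16694 for leaf, number 4916 of 16703 for wild-type callus and number 483 of 16646 for emf2 callus.

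Between the calli, the ACL5 mean was 6.82-fold higher in emf2 (2.97 ± 0.56), number 6 of 16185 tested genes by size of increase. Its unadjusted p was 0.000669 and its adjusted p 0.119, so it did not pass. Without wild-type callus replicate 2, the difference was 3.62 ± 0.40 with an adjusted p of 0.0172. Leaving out any other callus library gave adjusted p of 0.201 to 0.405. The opposite-strand neighbour MSL9 (AT5G19520) overlaps ACL5 by 196 bases, and the library kit does not keep strand. MSL9 had means of 8.53 RPKM in wild-type and 8.10 RPKM in emf2 callus and was not listed in leaf.

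The other polyamine genes were mixed. Of 18 genes in that list, 10 were tested in wild-type callus against leaf, with 1 higher and 5 lower, and 11 in emf2 callus against leaf, with 2 higher and 6 lower. PAO5, an oxidase that breaks down thermospermine, stood at 85.1, 61.4 and 58.9 RPKM in emf2 callus, at 33.0, 49.5 and 14.0 RPKM in wild-type callus and at 16.1, 17.7 and 7.04 RPKM in leaf. It was called higher in emf2 callus than in leaf (2.32 ± 0.47, adjusted p = 0.0028). ADC2, an arginine decarboxylase at the start of polyamine synthesis, was lower in both calli, by -1.68 ± 0.36 (adjusted p = 0.0035) in wild-type callus and by -2.75 ± 0.36 in emf2 callus. The 6 genes of the list that none of these tables holds were not analysed here.

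Both phloem members were well expressed in leaf and near or under the listing minimum in callus. SEOR1 (chr3:251868-255513) stood at 23.3, 29.6 and 14.7 RPKM in leaf and at 2.05, 1.30 and 0.00576 RPKM in wild-type callus, and it was not listed in emf2 callus. The third wild-type value rests on 1 read, against 496 and 298 reads in the other libraries. Its mean was 20.2-fold lower in wild-type callus than in leaf (-3.57 ± 0.46, adjusted p = 0.000697). Against emf2 callus, the leaf mean lay above the 1 RPKM bound by 3.50 ± 0.32 on the log2 scale (adjusted p = 0.000109). SEOR1 in wild-type callus did not lie above that bound (adjusted p = 0.991), so a difference between the calli was not detectable.

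APL (chr1:29877228-29879279) stood at 18.04, 24.8 and 19.6 RPKM in leaf and was listed in neither callus table. Its leaf libraries were close together, with a range of 1.37-fold against a median of 1.51-fold over listed genes. The leaf mean of 20.8 ± 3.5 RPKM (SD, n = 3) lay above the bound by 3.43 ± 0.13, a test that no callus value enters. Its p was adjusted over genes listed in leaf and not in wild-type callus (4.83e-05), or not in emf2 callus (4.31e-05). APL had 981 to 1256 reads in each leaf library.

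Several companion cell and sieve element genes were also listed in leaf alone. Of 27 phloem genes beside the members, 7 were listed in leaf and not in wild-type callus, and 7 of these 7 lay above the bound. Against emf2 callus the counts were 8 of 8. Over all genes listed in leaf alone the shares were 84.8% and 85%, so these counts are near the background. Among them were SUC2, the sucrose loader of companion cells, at 186, 210 and 160 RPKM in leaf, and SEOR2, the paralogue of SEOR1, at 32.4, 40.2 and 19.0 RPKM. Genes listed in both tables moved in either direction. OPS, which promotes protophloem entry, was higher by 3.41 ± 0.29 (adjusted p = 2.2e-05) in wild-type callus and by 2.99 ± 0.29 in emf2 callus, and SMXL5 by 3.13 ± 0.42 and 3.01 ± 0.42. AHA3, a proton pump of companion cells, was lower by -3.91 and -4.84 (adjusted p = 0.000963 and 0.000291), and CVL1, a phosphatase that acts with CVP2, by -1.37 and -1.02 (adjusted p = 0.000813 and 0.00385). Of the 12 phloem genes tested in both tables for wild-type callus, 3 were higher and 3 lower, beside 33.6% and 31.8% of all genes tested. Of 11 for emf2 callus, 4 were higher and 2 lower, beside 34.1% and 31.2%.

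Counted over the members, 7 were tested between wild-type callus and leaf, and CESA4, XCP2 and SEOR1 were called lower and PXY higher. CESA8 and APL, listed in leaf alone, both lay above the bound. The background is broad, since 33.6% of 14780 genes were called higher and 31.8% lower, and since 84.8% of 1914 genes listed in leaf alone and 68.5% of 1923 listed in wild-type callus alone lay above the bound. Between emf2 callus and leaf, 6 were tested, of which CESA4, XCP1 and XCP2 were called lower and PXY and ACL5 higher. CESA8, SEOR1 and APL lay above the bound. There 34.1% of 14693 genes were called higher and 31.2% lower, and 85% of 2001 genes listed in leaf alone and 75.3% of 1953 listed in emf2 callus alone lay above the bound. With so many of all genes called, the count of members called is no result by itself.

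Between the calli, limma called 0 of 6 tested members, and 1 of them, ACL5, had an unadjusted p under 0.05. Over all 16185 genes 0.068% were called higher and 0.0309% lower, and 1457 had an unadjusted p under 0.05. CESA4 differed by 0.43 ± 0.29, CESA7 by 0.29 ± 0.31, XCP2 by 0.59 ± 0.65 and XCP1 by -0.35 ± 0.79. These misses do not show that the calli are alike in these genes. Genes listed for 1 callus alone lay above the bound in 23% of 461 cases for emf2 and in 1.93% of 518 cases for wild-type callus.

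**Figure D3:**
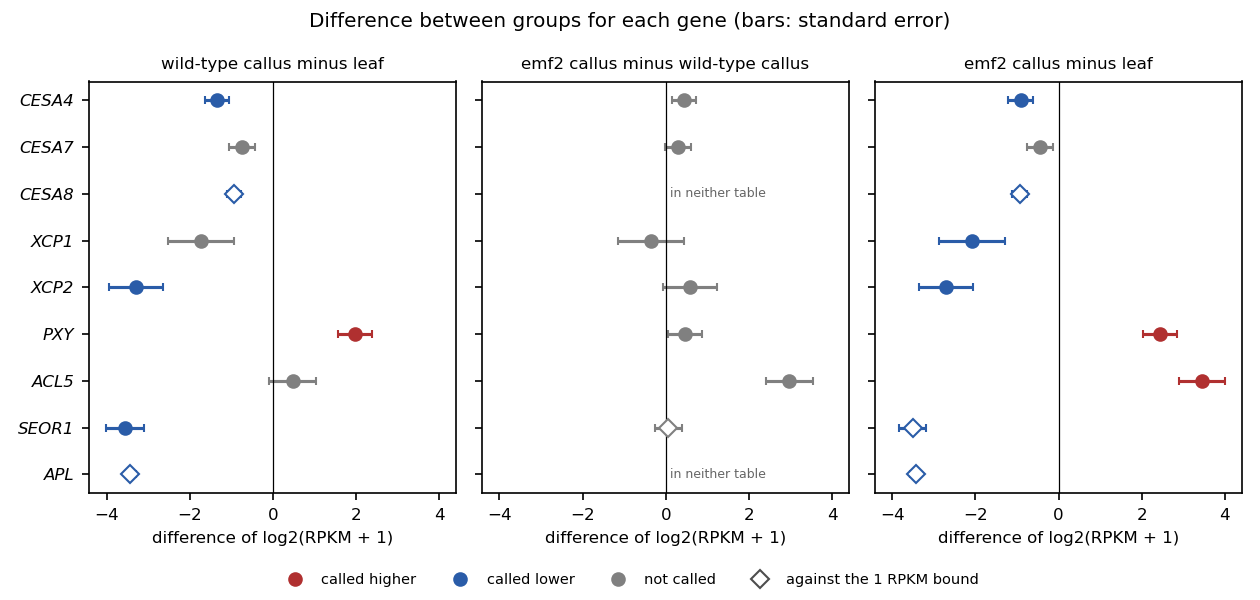
Difference between groups for each gene on the log2(RPKM + 1) scale (horizontal axis), with standard errors from the limma fit. Filled points compare 2 listed groups and open diamonds set the listed group against the 1 RPKM bound. SEOR1, APL and XCP2 lie far to the left in the comparisons with leaf, and ACL5 stands at 2.97 between the calli.

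The scaling of libraries bears on each comparison with leaf. Scaling to the recovered library totals moves the median difference of all genes to leaf to 0.87 for wild-type and to 0.91 for emf2 callus. On that scale PXY was higher by 2.80 and 3.30, XCP2 lower by -2.48 and -1.82 and SEOR1 lower by -2.80, and these calls stayed. CESA4 lost its call in both. XCP1 lost its call in emf2 callus, and CESA7 changed sign there, at 0.23. Over all genes, the calls in wild-type callus were 9231 higher and 2487 lower with library totals, against 4969 and 4703 as the authors scaled them. In emf2 callus they were 9440 and 2404, against 5004 and 4591.

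Upstream of the wall genes, the callus tables list transcription factors that the leaf table lacks, while 2 were listed in leaf and not in wild-type callus. These were VND6 and XND1, with leaf means of 1.70 and 1.25 RPKM, and neither was called above the bound. VND6 was also listed in emf2 callus. VND7, NST1, SND1, MYB46 and MYB83 were listed for no group. Of 22 secondary wall regulators, 3 were listed for leaf, 7 for wild-type callus and 11 for emf2 callus. Of the 18861 genes listed for any group, the counts were 16694, 16703 and 16646. VNI2 was the only regulator listed for all 3 groups, with means of 38.3 RPKM in leaf, 34.6 RPKM in wild-type callus and 14.5 RPKM in emf2 callus. VND1, a NAC-type switch for vessel formation, stood at 16.97, 16.8 and 10.3 RPKM in wild-type callus and was not listed in leaf (above the bound by 2.94 ± 0.16, adjusted p = 1.24e-05). In emf2 callus VND1 stood at 4.66, 4.07 and 3.50 RPKM, below each wild-type callus library, and the difference of -1.60 ± 0.22 did not pass (adjusted p = 0.0726). MYB63, an activator of lignin genes, and LBD18, which acts in vessel formation, had means of 19.98 and 14.0 RPKM in wild-type callus. Neither was listed in leaf.

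In this list, 4 genes were listed in emf2 callus and not in wild-type callus. Of these, LBD30 and VND4 were called above the bound, and VND6 (mean 1.75 RPKM) and MYB58 (1.52 RPKM) were not. Over all 461 genes listed in emf2 callus and not in wild-type callus, 23% lay above the bound. LBD30, also a regulator of vessel formation, stood at 9.89, 6.19 and 10.2 RPKM, above the bound by 2.26 ± 0.17 (adjusted p = 0.00179). VND4 stood at 2.15, 3.85 and 1.88 RPKM, above it by 0.82 ± 0.18. The NAC switch VND5, named after its values were seen, stood at 0.576, 3.36 and 0.299 RPKM in wild-type callus and at 6.47, 9.77 and 4.77 RPKM in emf2 callus. Like ACL5, it was highest among wild-type libraries in replicate 2, its callus groups did not overlap, and its difference did not pass (1.90 ± 0.49, adjusted p = 0.316).

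Downstream, the wall genes were mixed. Of 22 secondary wall and xylem cell genes, 15 were tested between wild-type callus and leaf, with 3 higher and 5 lower, and 3 of 6 listed in leaf alone lay above the bound. Over all genes, 33.6% of those tested were higher and 31.8% lower, and 84.8% of those listed in leaf alone lay above the bound. PARVUS, a glycosyltransferase of xylan synthesis, fell from 47.2 to 5.13 RPKM (-2.98 ± 0.13, adjusted p = 7.8e-07) and IRX15L, also of xylan synthesis, from 16.5 to 1.74 RPKM (-2.55 ± 0.48). The laccases LAC4 and LAC11 were lower by -1.89 ± 0.48 and -1.82 ± 0.63. Other genes of the list had higher means in wild-type callus than in leaf. BFN1 rose from 1.09 to 5.72 RPKM, GXMT1 from 2.86 to 6.05 RPKM and MC9 from 3.80 to 8.38 RPKM. MC9 overlapped leaf, at 3.34 RPKM in wild-type callus replicate 2. In emf2 callus against leaf the counts were 3 higher and 5 lower of 17, beside 34.1% and 31.2% of all genes tested.

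Most tested cellulose synthesis genes of the primary wall were lower in callus as scaled by the authors, and not with library totals. Of 9 primary wall genes, 7 were tested in each comparison with leaf, and 6 were lower and 0 higher in both. With library totals the counts were 3 lower and 2 higher in both. As the authors scaled the values, 33.6% of all genes tested were higher and 31.8% lower in wild-type callus. The shares in emf2 callus were 34.1% and 31.2%, and they hold for the lignin list below too. CESA5 fell from 87.3 RPKM to 10.0 RPKM in wild-type callus (-2.82 ± 0.42, adjusted p = 0.0005) and CESA2 from 31.4 to 3.67 RPKM (-2.77 ± 0.19). Their levels nonetheless lay above those of CESA4 and CESA7, whose callus means were under 2 RPKM. The lignin list held 6 higher and 3 lower of 15 tested in wild-type callus, with CAD5 higher by 2.88 ± 0.29 and CAD4 lower by -3.41 ± 0.54. In emf2 callus it held 6 higher and 1 lower of 14. FAH1 was listed in wild-type callus and not in emf2 callus. Its wild-type callus mean lay above the 1 RPKM bound (adjusted p = 0.0125), a test that no emf2 value enters.

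The other papain-like proteases were mixed. Of 14 genes, 10 were tested in each comparison with leaf. In wild-type callus 2 were higher and 4 lower, beside 33.6% and 31.8% of all genes tested. In emf2 callus 3 were higher and 5 lower, beside 34.1% and 31.2%. RD21B rose from 9.4 to 128 RPKM (3.66 ± 0.23, adjusted p = 4e-06) and the cathepsin B gene CATHB3 from 29.8 to 210 RPKM (2.90 ± 0.33) in wild-type callus, while ALP2 fell from 13.8 to 1.31 RPKM.

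The middle of each list can be read against the median of all tested genes, 0.06 in wild-type and 0.08 in emf2 callus. The median difference to leaf of the secondary wall and xylem cell list was -0.42 in wild-type and -0.37 in emf2 callus, and that of the primary wall list -0.98 and -0.92. For the papain-like proteases it was -0.37 and -0.39, and for the polyamine list -0.28 and -0.61. The lignin list lay at 0.31 and 0.67 and the phloem list at 0.17 and 0.43. With library totals, where all genes have medians of 0.87 and 0.91, the medians of the secondary wall and xylem cell list turned to 0.32 and 0.17. Those of the protease list turned to 0.53 and 0.54 and of the polyamine list to 0.61 and 0.31, while the primary wall list came to -0.033 and 0.059. The split of calls turned with them, to 5 higher and 2 lower for the secondary wall and xylem cell list, 4 and 2 for the proteases and 6 and 0 for the polyamine list in wild-type callus. In emf2 callus those splits were 6 and 2, 5 and 2, and 5 and 2. The lignin medians were then 1.27 and 1.53, with 10 higher and 2 lower in wild-type and 10 and 1 in emf2 callus, and the phloem medians 0.83 and 1.15, with 5 and 3 and with 7 and 1. The cambium and procambium list stayed mostly higher, with 8 higher and 2 lower in both. Between the calli, as the authors scaled the values, limma called 0 genes listed in both tables in each of these lists. In them, 1 to 3 genes a list had an unadjusted p under 0.05. In the list of secondary wall regulators, limma called 0 of 7 tested genes, and 4 had an unadjusted p under 0.05. Among all 16185 genes tested, 1457 had an unadjusted p under 0.05. CLE41 differed between emf2 and wild-type callus by -1.69 ± 0.25 (adjusted p = 0.0616), which did not pass, and was called lower with read totals (-1.73, adjusted p = 0.0417) and with quantile normalization (-1.82, adjusted p = 0.0187).

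**Figure D4:**
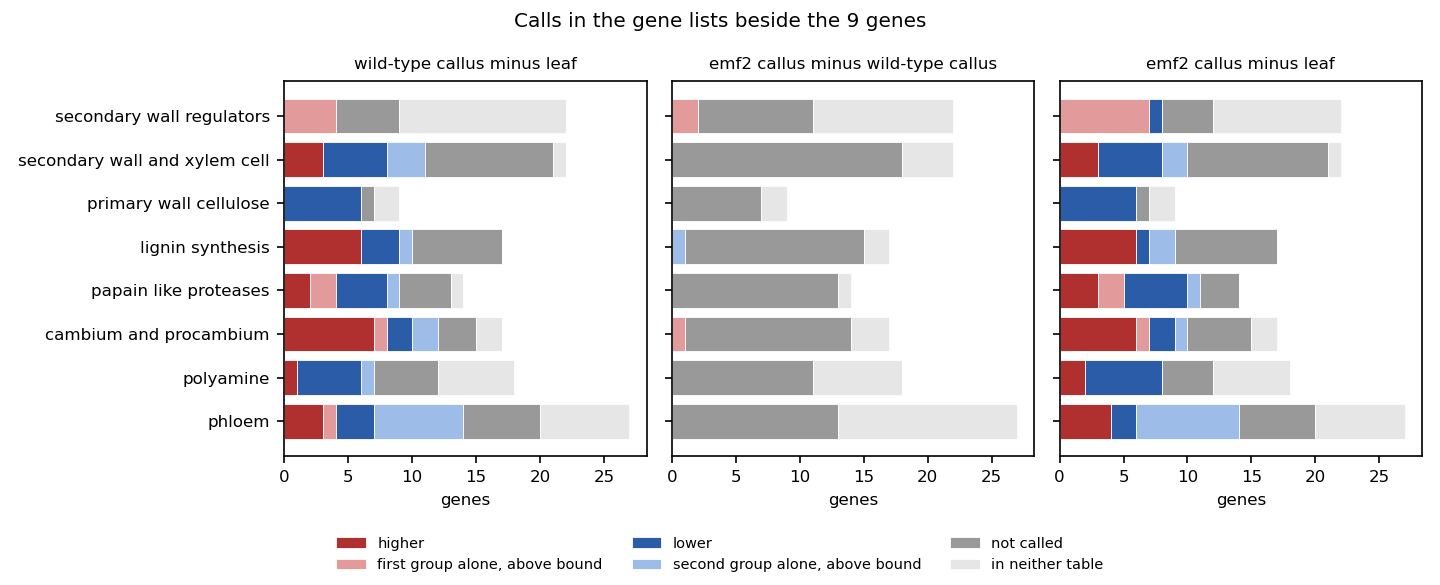
Number of genes called in each list beside the members (horizontal axis), for the 3 comparisons. Dark colours are genes listed in both tables, pale colours genes listed in 1 table and above the 1 RPKM bound, and grey marks genes not called or in neither table. The cambium and procambium list has 7 higher genes in wild-type callus, and the phloem list has 7 found in leaf alone.

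Profiles over the 9 libraries were compared by the root mean square difference of centred log2(RPKM + 1) values among 14476 genes listed in each table, as a description of likeness. Apart from members, the genes nearest to XCP1 were LAC4 (IRX12 in RefSeq) at 0.44, AT3G27200 at 0.46 and PYL7 at 0.48. Nearest to XCP2 were the peroxidase gene PRX66 (AT5G51890) at 0.37, HHO2 (AT1G68670) at 0.48 and AT1G78830 at 0.53. For CESA4 they were AT5G38610, ASG1 and CYP711A1 at 0.18 to 0.20, and for CESA7 AGP19, PDS1 and ANT1 at 0.18 to 0.19. CESA4 and CESA7 lay 0.27 apart and XCP1 and XCP2 0.71 apart. PXY was nearest to NIP1;2 at 0.17, then to ROPGEF5 and GH9B1 at 0.25. ACL5 had no close profile, with AT5G02540 nearest at 0.55 and AT1G25530 and TRX1 at 0.65.

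**Figure D5:**
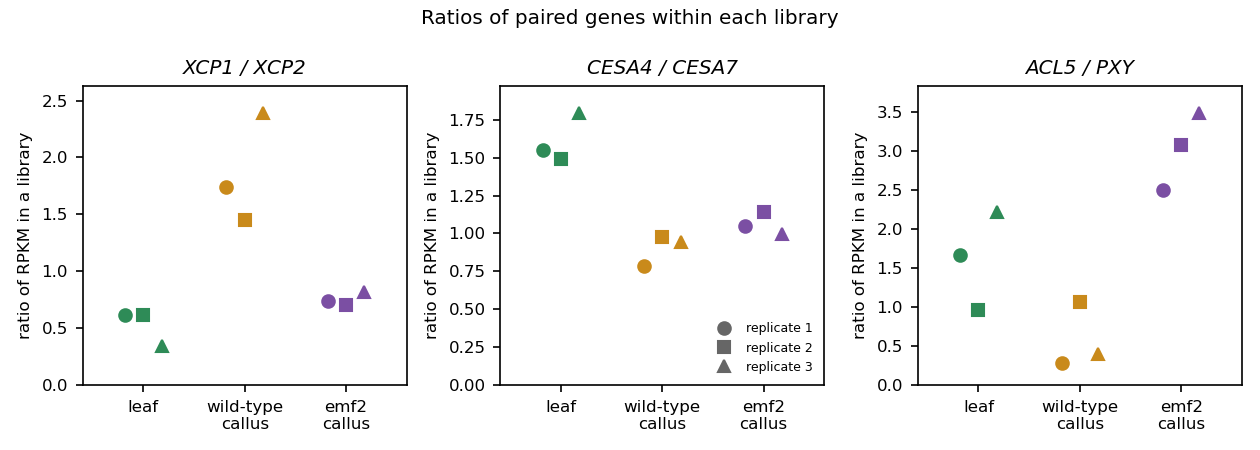
Ratio of RPKM between paired members within each library (vertical axis, linear from 0), with 1 point a library. XCP1 over XCP2 is highest in wild-type callus (1.45 to 2.39), CESA4 over CESA7 highest in leaf (1.49 to 1.79) and ACL5 over PXY highest in emf2 callus (2.50 to 3.49).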

How the data were processed

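RNA was measured in 9 polyA-selected libraries made with the TruSeq RNA V2 kit, an unstranded kit, with 15 PCR cycles and 4 libraries a lane, per the labels' protocols. FastQC, cutadapt, TopHat and TAIR10 are named in the submitters' processing notes, and the counter of reads is not given in the sources used here. The deposited values are RPKM, per the file headers, in 1 table a group that lists genes with a mean above 1 RPKM. Whole reads were recovered from the ratios of RPKM between libraries for 18861 of 18861 genes, at a relative tolerance of 5e-13. They describe depth and counting error, and they gave the alternative scaling to library totals.

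Differences were tested with limma 3.58.1 in R 4.3.3 on log2(RPKM + 1), with all 9 libraries in a single fit with a mean trend, and Benjamini-Hochberg adjustment over the genes listed in both compared tables. This scale understates changes of low genes. A gene listed for 1 group was tested against a mean of 1 RPKM, adjusted separately. Calls are two-sided at an adjusted p under 0.05. The procedure was tested on simulated data.

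The members and the 10 gene lists beside them were chosen with earlier results of these data known. Up to 4 genes a list and comparison are named, by the size of change among called genes of at least 2-fold, then by level among genes listed for 1 group, with exceptions stated. Gene positions and promoters are from RefSeq TAIR10.1, in which the members and list genes were matched by locus. Alternatives were a pseudocount of 0.1, a minimum of 5 RPKM, quantile normalization, library totals, a fit on the compared groups, a replicate block and leaving out each library.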

Additional observations from a re-analysis of the deposited data

How the results depend on the processing

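Between wild-type callus and leaf, 4 members were called, and 3 to 6 under the alternatives (4 to 6 when 1 library was left out), not always the same genes. With a minimum of 5 RPKM, 1 member listed for one group lay above the bound in place of 2, since CESA8 was no longer tested. CESA4 was not tested at that minimum either, and lost its call with library totals (adjusted p = 0.0502). Under quantile normalization SEOR1 was not tested and CESA7 became called (adjusted p = 0.0299). Between emf2 callus and leaf, 5 members were called, and 3 under library-total scaling, where CESA7 reversed to 0.23. Leaving out 1 library gave 3 to 5 (3 without leaf replicate 1, leaf replicate 2 or emf2 callus replicate 1). CESA4 then lost its call with adjusted p of 0.0746, 0.0771 and 0.0718. XCP1 lost its call with a pseudocount of 0.1 (adjusted p = 0.0718). Between the calli, 0 members were called, and 0 to 1 when 1 library was left out. Uncalled differences changed sign when 1 library was left out. They ranged from -0.17 to 1.01 for ACL5 in wild-type callus minus leaf, and between the calli from -1.19 to 0.19 for XCP1, from -0.018 to 1.17 for XCP2 and from -0.40 to 0.40 for SEOR1 against the bound. The cause of these changes was not tested. Over all genes, the calls between the calli were 11 higher and 5 lower, against 51 and 70 without wild-type callus replicate 2, 32 and 34 with a minimum of 5 RPKM, and 4 and 0 without emf2 callus replicate 1. Library totals moved all-gene calls to 9231 higher and 2487 lower in wild-type callus, from 4969 and 4703. Same-numbered libraries of different groups correlated in their deviations by -0.21 to 0.61, so the numbers were not taken to pair the samples. A fit with the replicate block called 4 members for wild-type callus against leaf, 0 between the calli and 4 for emf2 callus against leaf, where XCP1 lost its call (adjusted p = 0.0793). The bound test was not run under quantile normalization, library totals or the block. Depth limits the lowest values, such as the 1 read of SEOR1.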
